A study of Mus musculus with 9 samples.

Results

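The desmosome genes described here are Dsg1a, Dsg1b, Dsg2, Dsg3, Dsc2, Dsc3, Dsp, Jup, Pkp1, and Pkp3. They were taken by their gene symbols from the count tables, which makes 10 of 22609 listed genes. Transcripts were counted by RNA-seq in 9 libraries, and the labels do not say whether each came from a separate mouse. The libraries came from tumors that grew from 4T1, a mouse mammary carcinoma cell line used as a model of triple-negative breast cancer. The cells had been injected into the fat pad of the mammary gland in BALB/c hosts, and n below counts libraries. The LFD group (n = 3) was fed a diet with 10% of its calories from fat and received vehicle. The HFD group (n = 3) was fed a diet with 60% of its calories from fat and received the same vehicle. The HFD + EC359 group (n = 3) was fed the 60% fat diet and received EC359, an inhibitor of the leukemia inhibitory factor receptor (LIFR), at 5 mg/kg on 5 days per week. All mice had been on their diet for 6 weeks when 500000 cells were injected, and no age or sex of the hosts was given in the labels. There was no group that received EC359 on the low-fat diet.

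Desmosomes are button-like junctions that tie the intermediate filaments of neighboring epithelial cells together. The desmogleins (Dsg) and desmocollins (Dsc) are cadherins that span the membrane and bind their counterparts on the next cell. Plakoglobin (Jup) and the plakophilins (Pkp) bind the cadherin tails, and desmoplakin (Dsp) links this plaque to keratin filaments. Desmosomes are most abundant in tissues under mechanical load, such as skin, and occur in the mammary epithelium.

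The library totals were 5085357 to 9751201 counts, lowest in the LFD group and highest in the HFD + EC359 group. A level of 3 counts, the upper limit that a count of 0 allows, was 0.3 to 0.614 CPM (counts per 1000000, scaled with TMM factors) depending on the library, for counting error only. The labels name the tissue as the cell line although the titles say tumor, and both epithelial and host genes were measured. The epithelial keratins Krt8 and Krt18 had means of 408 to 599 CPM and 293 to 486 CPM in the 3 groups, and the epithelial adhesion molecule Epcam 1.37 to 7.39 CPM. The libraries differed in base composition by group. Genes of low GC content (at most 45.8%) were lower than genes of high GC content (at least 55.4%) by 0.32 to 0.54 on the log2 scale in the LFD libraries, and higher by 0.1 to 0.16 in the HFD libraries and by 0.25 to 0.3 in the HFD + EC359 libraries, each relative to the mean of all libraries.

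Of the 10 desmosome genes, 8 passed the filter on low counts and were tested. Dsg2 and Dsc2 did not pass and are described by their counts. Dsg3 passed only through its counts in the LFD and HFD + EC359 libraries, and it is among the genes counted below. In the HFD group 7 of the 8 tested genes were lower than in the LFD group by more than 2-fold at an adjusted p under 0.01, while 2.68% of all 13366 tested genes were lower by this rule. In the HFD + EC359 group 6 of the 8 were higher than in the HFD group by the same rule, against 2.06% of all tested genes. Between the HFD + EC359 and LFD groups, 0 of the 8 passed this rule in either direction, against 5.09% of all tested genes. With a fold of at least 4 in place of 2, 5 of the 8 were lower in HFD than in LFD tumors (1.5% of all tested genes), 5 were higher with EC359 than in HFD tumors (1.05%), and 0 passed between HFD + EC359 and LFD (0.411% in either direction). The median log2 fold change of the 8 genes was -2.72 for HFD against LFD, 2.33 for HFD + EC359 against HFD, and -0.38 for HFD + EC359 against LFD, where the medians of all tested genes were 0.007, 0.006, and 0.011. The comparisons share libraries, so that the HFD libraries enter both of the larger differences. The desmosome genes were chosen with earlier results of these data known. The shares of all tested genes are therefore a description and not an independent test. These are whole tumors, in which fewer cells of a type and less RNA per cell cannot be told apart. Nothing in the labels says which mouse each library came from. The p-values measure the spread between these libraries, which need not be that between mice. This spread was small, with a coefficient of variation beyond counting noise of 3.63%, common to all genes.

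**Figure D1:**
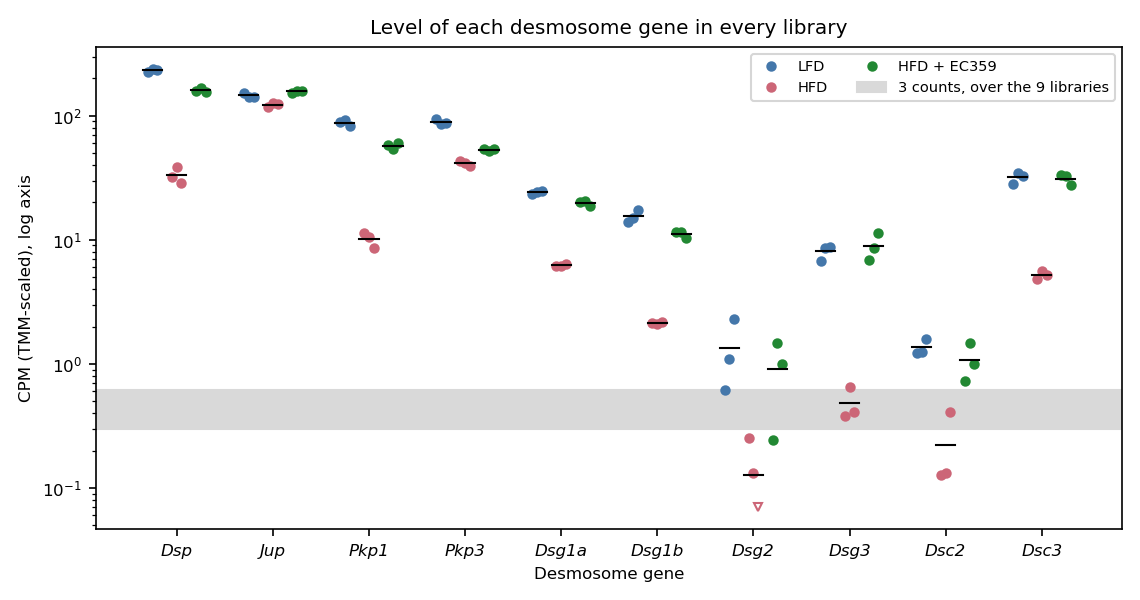
Level of each desmosome gene (CPM, TMM-scaled, log axis) in the 9 libraries, with points for single libraries and black lines for group means. The HFD points lie under those of the other groups for every gene but Dsg2, with smaller gaps for Jup and Pkp3. Jup varies least, and Dsg2, Dsc2, and HFD Dsg3 lie near the grey band that marks 3 counts (the open triangle is a count of 0, drawn at the bottom because a log axis has no 0).

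Dsp, on chromosome 13 (mm9, 38243163 to 38290446, plus strand), encodes desmoplakin, the link between the plaque and the filaments. Its level was 224, 238, and 233 CPM in the LFD libraries, 32.0, 38.6, and 28.5 CPM in the HFD libraries, and 159.5, 167.5, and 155.0 CPM in the HFD + EC359 libraries. The 3 groups did not overlap, and each HFD + EC359 library lay between the other groups. Dsp was 7.02-fold lower in HFD than in LFD tumors (log2 fold change -2.81, SE 0.065, adjusted p = 7.844e-27, quasi-likelihood test of edgeR, Benjamini-Hochberg adjusted over all tested genes). With EC359 it was 4.85-fold higher than in HFD tumors (log2 fold change 2.28, SE 0.065, edgeR adjusted p = 5.003e-24). It then stood at 69.2% of its LFD level, a difference that also passed an adjusted p under 0.05 (log2 fold change -0.53, SE 0.051, edgeR adjusted p = 1.175e-10).

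Jup, on chromosome 11 (mm9, 100230170 to 100259104, minus strand), encodes plakoglobin, which is shared by desmosomes and adherens junctions. Its level was 153.6, 141.4, and 142.8 CPM in the LFD libraries, 118.5, 126.4, and 123.5 CPM in the HFD libraries, and 152.6, 159.6, and 159.1 CPM in the HFD + EC359 libraries. The HFD libraries lay under all others, and the LFD and HFD + EC359 libraries overlapped. Jup was 1.19-fold lower in HFD than in LFD tumors (log2 fold change -0.25, 95% interval -0.35 to -0.15, edgeR adjusted p = 7.759e-05). With the trend of each library in GC content and gene length removed, this difference was -0.11 (edgeR adjusted p = 0.0452). Jup was 1.28-fold higher with EC359 than in HFD tumors (log2 fold change 0.36, 95% interval 0.26 to 0.45, edgeR adjusted p = 2.385e-07). These intervals lie apart from those of Dsp, which ran from -2.94 to -2.68 and from 2.14 to 2.41. Between the HFD + EC359 and LFD groups the Jup difference was 0.11 (95% interval 0.01 to 0.20, edgeR adjusted p = 0.04364), and it missed an adjusted p under 0.05 in 10 of 18 alternative settings, among them when any library but LFD replicate 1 and HFD + EC359 replicate 1 was left out (0.08 to 0.11, edgeR adjusted p from 0.0523 to 0.21).

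Dsp and Jup belong to the same plaque and were at similar levels in LFD tumors, but differed in the size of their change. Their upstream sequences are shown because no other promoter of the 10 genes was available, and a link between sequence and change was not tested. The RefSeq promoter table (GRCm38.p6) held 2 of the 10 desmosome genes, and the 250 bases before each start are given below, 5′ to 3′ on the strand of the gene, with GC boxes (GGGCGG on either strand) in capitals.
Dsp, chr13:38151044-38151293, plus strand: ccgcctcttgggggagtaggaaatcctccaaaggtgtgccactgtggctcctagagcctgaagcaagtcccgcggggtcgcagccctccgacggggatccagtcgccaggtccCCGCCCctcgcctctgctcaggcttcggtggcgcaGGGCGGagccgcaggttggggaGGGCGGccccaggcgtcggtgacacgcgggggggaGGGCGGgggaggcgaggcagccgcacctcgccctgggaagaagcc
Jup, chr11:100397791-100398040, minus strand: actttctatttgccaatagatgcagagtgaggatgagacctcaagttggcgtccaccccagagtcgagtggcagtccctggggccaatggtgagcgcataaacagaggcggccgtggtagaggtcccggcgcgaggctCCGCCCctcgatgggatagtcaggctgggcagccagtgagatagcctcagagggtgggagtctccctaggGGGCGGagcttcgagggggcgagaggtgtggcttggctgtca

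The Dsp window had a GC content of 72.4% and 4 GC boxes, and the Jup window 62% and 2. A GC box was found in 32.7% of 32851 promoter windows of this length. The letters of the AP-1 motif (TGANTCA, in 6.75% of the windows), the STAT motif (TTCNNNGAA, 7.02%), the Grainyhead motif (AACCGGTT, 0.116%), and the E-box (CACCTG, 17.2%) were searched on both strands and were not in either window. This says only that these letters were not found there.

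Pkp1 and Pkp3 encode plakophilins, which bind desmoplakin and the cadherins and help to cluster them. Pkp1, on chromosome 1 (mm9, 137767972 to 137815601, minus strand), had 89.2, 92.5, and 82.3 CPM in the LFD libraries, 11.3, 10.6, and 8.59 CPM in the HFD libraries, and 57.9, 54.4, and 60.0 CPM in the HFD + EC359 libraries. The 3 groups did not overlap. Pkp1 was 8.61-fold lower in HFD than in LFD tumors (log2 fold change -3.11, SE 0.095, edgeR adjusted p = 4.176e-23) and 5.62-fold higher with EC359 than in HFD tumors (2.49, SE 0.097, edgeR adjusted p = 3.552e-20). With EC359 it stood at 65.3% of its LFD level (log2 fold change -0.62, SE 0.070, edgeR adjusted p = 4.419e-09).

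Pkp3, on chromosome 7 (mm9, 148264128 to 148276409, plus strand), moved otherwise. Its level was 94.1, 85.4, and 86.9 CPM in the LFD libraries, 43.1, 41.3, and 39.4 CPM in the HFD libraries, and 53.7, 52.0, and 53.7 CPM in the HFD + EC359 libraries. The HFD + EC359 libraries lay above the HFD libraries without overlap and under the LFD libraries. Pkp3 was 2.15-fold lower in HFD than in LFD tumors (log2 fold change -1.10, SE 0.067, edgeR adjusted p = 4.924e-15). This gene has the highest GC content of the 10, at 60.3%, and without the GC and length trend the difference was -0.84 (edgeR adjusted p = 1.36e-13), which is under 2-fold. With EC359 it was 1.29-fold higher than in HFD tumors (log2 fold change 0.36, 95% interval 0.23 to 0.50, edgeR adjusted p = 9.846e-05). At 60.0% of its LFD level it was the lowest relative to LFD of the tested desmosome genes in EC359 tumors (log2 fold change -0.74, SE 0.063, edgeR adjusted p = 9.332e-12), while the GC and length correction put it at -0.38 (edgeR adjusted p = 2.12e-06) and Dsg1a, at -0.69, in its place.

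The cadherins lie in a cluster on chromosome 18 (mm9), with Dsc3 (20119431 to 20160598) and Dsc2 (20189299 to 20218006) on the minus strand and Dsg1a (20469374 to 20501854), Dsg1b (20535336 to 20568242), Dsg3 (20668805 to 20699811), and Dsg2 (20716617 to 20763027) on the plus strand. None overlapped another listed gene on its strand. Dsc3, the most abundant cadherin per length in LFD tumors, had 28.2, 34.8, and 33.0 CPM in the LFD libraries, 4.79, 5.63, and 5.18 CPM in the HFD libraries, and 33.1, 32.6, and 27.7 CPM in the HFD + EC359 libraries. The HFD libraries stood apart, and the other 2 groups overlapped. Dsc3 was 6.18-fold lower in HFD than in LFD tumors (log2 fold change -2.63, SE 0.14, edgeR adjusted p = 9.887e-17) and 5.96-fold higher with EC359 than in HFD tumors (2.57, SE 0.13, edgeR adjusted p = 5.933e-17). Its difference between HFD + EC359 and LFD was -0.05 (95% interval -0.25 to 0.14, edgeR adjusted p = 0.6493). With the GC and length trend removed, that difference was -0.41 (edgeR adjusted p = 0.000431).

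Dsg3, a desmoglein of basal keratinocytes and the target of antibodies in pemphigus vulgaris, had 6.75, 8.63, and 8.81 CPM in the LFD libraries and 6.91, 8.58, and 11.3 CPM in the HFD + EC359 libraries. In the HFD libraries it was near the counting limit, with 3, 5, and 3 counts. It passed the filter through its counts in the other groups. Dsg3 had the largest fitted change of the 8 tested genes, 16.4-fold lower in HFD than in LFD tumors (log2 fold change -4.04, SE 0.35, edgeR adjusted p = 1.704e-11) and 18.2-fold higher with EC359 than in HFD tumors (4.19, SE 0.32, edgeR adjusted p = 1.932e-12). Since the HFD group held 11 counts in all, the size of the change was known only broadly, and the ratio of the summed counts was 17.0 for LFD over HFD (exact 95% counting interval 9.19 to 34.8) and 18.9 for HFD + EC359 over HFD (10.4 to 38.3). The counting interval for LFD over HFD overlapped those of Pkp1 (7.509 to 9.941) and Dsg1b (5.335 to 10.06). By counting error alone, the rank of Dsg3 in that comparison was therefore not settled. Between HFD + EC359 and LFD the difference was 0.15 (95% interval -0.22 to 0.52, edgeR adjusted p = 0.4993).

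Dsg1a and Dsg1b are mouse copies of desmoglein 1, a cadherin of the upper epidermis. Their exons were 97.2% identical over 3379 aligned bases, and 27.3% of the 150-base stretches of Dsg1b occurred letter for letter in Dsg1a, so that the levels of both are uncertain. Fractional counts occurred in 0 libraries for Dsg1a and in 1 for Dsg1b, which gives little sign that pairs were split between them. Pairs from shared stretches may have been left out of both, which was not tested. Dsg1a had 23.5, 24.5, and 24.7 CPM in the LFD libraries, 6.18, 6.16, and 6.41 CPM in the HFD libraries, and 20.01, 20.54, and 18.8 CPM in the HFD + EC359 libraries. The groups did not overlap, and Dsg1a was 3.88-fold lower in HFD than in LFD tumors (log2 fold change -1.96, SE 0.13, edgeR adjusted p = 2.993e-14) and 3.16-fold higher with EC359 than in HFD tumors (1.66, SE 0.12, edgeR adjusted p = 1.395e-12). Dsg1b had 13.9 to 17.4 CPM in the LFD libraries, 2.096 to 2.181 CPM in the HFD libraries, and 10.4 to 11.6 CPM in the HFD + EC359 libraries, with log2 fold changes of -2.85 (SE 0.19, edgeR adjusted p = 4.765e-14) and 2.38 (SE 0.19, edgeR adjusted p = 7.199e-12). Counted as 1 gene, the pair was lower by 2.25 on the log2 scale in HFD than in LFD tumors and higher by 1.88 with EC359. Against LFD, Dsg1a with EC359 differed by -0.30 (edgeR adjusted p = 0.01151) and Dsg1b by -0.47 (edgeR adjusted p = 0.002865), and the Dsg1a call was lost with DESeq2 (adjusted p = 0.0505) and with library totals alone (edgeR adjusted p = 0.0564).

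Dsg2 and Dsc2, the desmoglein and desmocollin found most widely among tissues, including simple epithelia, were scarce. Dsg2 had 3, 7, and 13 counts in the LFD libraries, 2, 1, and 0 counts in the HFD libraries, and 2, 13, and 10 counts in the HFD + EC359 libraries, so that HFD and HFD + EC359 overlapped. Summed over the libraries and scaled to their size, Dsg2 was 10.4 times higher in LFD than in HFD tumors (exact 95% counting interval 3.13 to 53.9) and 7.04 times higher in HFD + EC359 than in HFD tumors (2.15 to 36.4). Dsc2 had 6, 8, and 9 counts, 1, 1, and 3 counts, and 6, 13, and 10 counts in the LFD, HFD, and HFD + EC359 libraries, and the HFD libraries lay under all others. Its ratios to HFD were 6.22 for LFD (2.31 to 20.9) and 4.90 for HFD + EC359 (1.88 to 16.2). When every gene with at least 1 count was tested, both were lower in HFD than in LFD tumors (edgeR adjusted p = 0.0001677 for Dsg2 and 0.001045 for Dsc2) and higher with EC359 than in HFD tumors (edgeR adjusted p = 0.005182 and 0.007844). Few HFD counts lie behind these calls. With EC359 against HFD, neither passed the 2-fold rule without HFD replicate 1, HFD replicate 2, or HFD + EC359 replicate 3. Both passed it without LFD replicate 1 or HFD + EC359 replicate 1. Without HFD replicate 3, 9 of the 10 desmosome genes reached an adjusted p under 0.05 in that comparison.

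**Figure D2:**
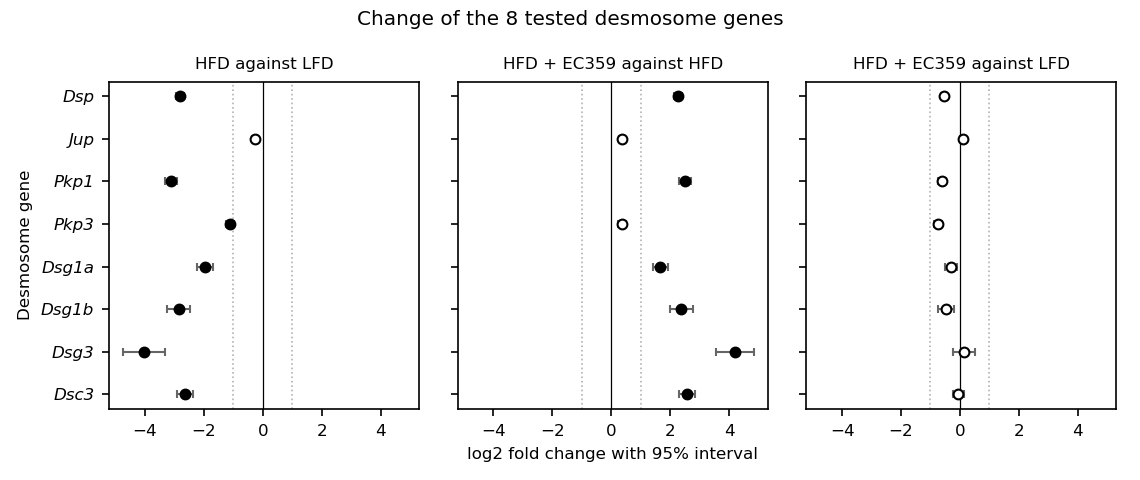
Log2 fold change of the 8 tested desmosome genes in each comparison, with 95% intervals from the edgeR fit, filled circles for genes past 2-fold (dotted lines) and an adjusted p under 0.01, and open circles for the others. From left to right the panels hold 7, 6, and 0 filled circles, and Jup lies nearest to 0 in the left panel (-0.25).

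At an adjusted p under 0.05 with any fold change, all 8 tested genes were lower in HFD than in LFD tumors, as were 25.8% of all tested genes, and all 8 were higher with EC359 than in HFD tumors, as were 12.7%. The HFD libraries lay under the LFD libraries without overlap for all 8 (28.6% of all tested genes) and under the HFD + EC359 libraries for all 8 (20.6%). Between HFD + EC359 and LFD, 5 of the 8 were lower (Dsp, Pkp1, Pkp3, Dsg1a, and Dsg1b, against 29.1% of all tested genes), 1 was higher (Jup, 29.2%), and Dsg3 and Dsc3 did not pass. The 5 that were lower also had no overlap between these groups (31.1% of all tested genes). Many genes met these looser rules, and far fewer met the rule with a 2-fold change.

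The makeup of the desmosome transcripts was compared per length, as CPM per kilobase of exon. In LFD tumors the order was Pkp3 (29.2 ± 1.53, SD, n = 3), Jup (29.1 ± 1.34), Dsp (24.2 ± 0.744), Pkp1 (19.6 ± 1.16), Dsc3 (6.04 ± 0.642), Dsg1b (4.55 ± 0.530), Dsg1a (4.31 ± 0.109), Dsg3 (1.96 ± 0.278), Dsc2 (0.307 ± 0.0451), and Dsg2 (0.233 ± 0.151). The ranges of Pkp3 and Jup, of Dsg1b and Dsg1a, and of Dsc2 and Dsg2 overlapped, and the other neighbors did not. In HFD tumors Jup (24.5 ± 0.794) led, followed by Pkp3 (13.6 ± 0.614), Dsp (3.45 ± 0.537), and Pkp1 (2.27 ± 0.319), without overlap. The cadherins came last, from Dsg1a (1.11 ± 0.0245) to Dsg2 (0.0223 ± 0.0220). In HFD + EC359 tumors Jup (31.4 ± 0.777) again led, and Pkp3 (17.4 ± 0.321) and Dsp (16.8 ± 0.659) overlapped in range.

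**Figure D3:**
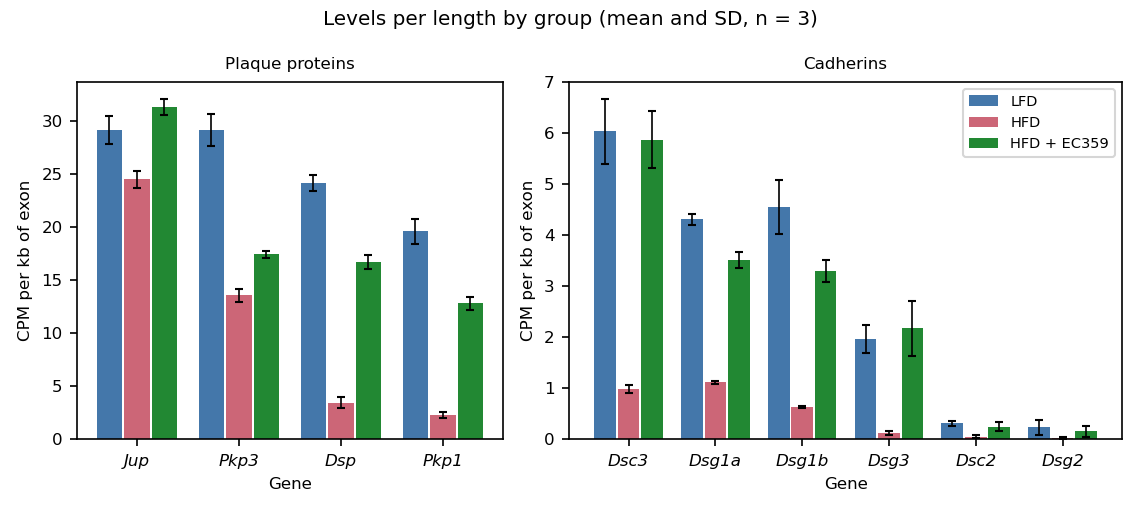
Mean level of each desmosome gene per kilobase of exon (CPM per kb) in the 3 groups, with plaque proteins on the left and cadherins on the right (axes differ), and bars for the SD (n = 3). The HFD bar is the lowest for every gene, from 24.5 CPM per kb for Jup to 0.0223 CPM per kb for Dsg2.

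The ratios of Jup to its partners differed between the groups. Per length, Jup was 1.21 ± 0.0929 times Dsp in LFD tumors, 7.22 ± 1.02 times in HFD tumors, and 1.87 ± 0.0794 times in HFD + EC359 tumors (SD, n = 3). Relative to the 6 cadherins together it was 1.69 ± 0.239, 8.43 ± 0.0563, and 2.06 ± 0.0810. By contrast the sum of the cadherins relative to Dsp was 0.718 ± 0.0489, 0.857 ± 0.127, and 0.911 ± 0.00278, with overlap between the LFD and HFD libraries. Pkp3 relative to Jup was 1.001 ± 0.00721, 0.553 ± 0.0395, and 0.557 ± 0.0215, so that HFD and HFD + EC359 tumors overlapped. Pkp1 relative to Pkp3 went from 0.674 ± 0.0530 in LFD to 0.167 ± 0.0167 in HFD and 0.733 ± 0.0244 in HFD + EC359 tumors. These ratios are a description and were not tested.

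Within the desmogleins the share of Dsg3 per length was 17.7% ± 1.29 in LFD, 6.22% ± 1.92 in HFD, and 23.7% ± 5.25 in HFD + EC359 tumors, and that of Dsg1a was 39.1% ± 2.68, 59.1% ± 1.40, and 38.5% ± 2.53 (SD, n = 3). The HFD libraries stood apart from the others for both genes. The near-identical sequence of Dsg1a and Dsg1b makes these shares uncertain. Among the 2 desmocollins, Dsc3 made up 95.1% ± 0.664, 95.2% ± 3.34, and 96.0% ± 1.29. Over the 9 libraries, Pearson correlations of log2 CPM between pairs of the 8 tested genes ran from 0.51 (Jup and Pkp3) to 0.999 (Dsg1a and Dsg1b). The libraries share groups and composition, and these values are a description.

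A list of 9 other desmosome genes was examined next, of which 7 were tested. In HFD tumors 4 of the 7 were lower than in LFD tumors by more than 2-fold at an adjusted p under 0.01 (2.68% of all tested genes). The same 4 were higher with EC359 than in HFD tumors (2.06%). They were Perp, a membrane protein needed for desmosome assembly (66.6 ± 3.11 CPM in LFD, 9.41 ± 1.18 in HFD, and 47.2 ± 2.51 in HFD + EC359 tumors, SD, n = 3), Evpl, a plaque protein of the plakin family (32.9 ± 2.95, 5.58 ± 1.53, and 15.9 ± 1.97 CPM), the desmocollin Dsc1 (16.7 ± 2.19, 2.74 ± 0.655, and 13.8 ± 1.21 CPM), and Cdsn, an adhesive protein of cornified desmosomes (21.4 ± 2.53, 5.21 ± 0.345, and 20.1 ± 0.0698 CPM). The log2 fold changes were -2.82, -2.55, -2.60, and -2.05 for HFD against LFD and 2.32, 1.52, 2.32, and 1.95 for HFD + EC359 against HFD, with edgeR adjusted p of at most 2.23e-09.

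The other 3 tested genes of this list changed less. Ppl, a plakin that partners with the Evpl protein, differed by -0.38 on the log2 scale (edgeR adjusted p = 3.685e-08) and by 0.58 with EC359 (edgeR adjusted p = 2.261e-12). Pkp4, an armadillo protein related to the plakophilins, differed by -0.12 (edgeR adjusted p = 0.1166) and -0.20 (edgeR adjusted p = 0.01299). Pkp2, the plakophilin of simple epithelia and heart, was low at 2.36 ± 0.550, 1.99 ± 1.12, and 0.888 ± 0.602 CPM and differed by -0.23 (edgeR adjusted p = 0.6425) and -1.16 (edgeR adjusted p = 0.04502). Between HFD + EC359 and LFD tumors, Evpl (-1.03, edgeR adjusted p = 2.821e-09) and Pkp2 (-1.40, edgeR adjusted p = 0.008206) were lower past the 2-fold rule. Without HFD + EC359 replicate 1 neither passed it. Dsg4 was at 0 in all libraries, and Dsg1c had 2, 1, and 3 counts, 0 counts in each HFD library, and 5, 3, and 8 counts with EC359.

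The filaments that desmosomes anchor were considered from a list of 12 genes, 10 of them tested. Of these, 7 were lower in HFD than in LFD tumors by the 2-fold rule (2.68% of all tested genes) and 7 were higher with EC359 than in HFD tumors (2.06%). The 3 most abundant per length were not among them. Vim differed by -0.35 on the log2 scale between HFD and LFD (edgeR adjusted p = 6.906e-13), Krt8 by -0.55 (edgeR adjusted p = 6.998e-15), and Krt18 by -0.73 (edgeR adjusted p = 5.871e-17), and with EC359 against HFD by -0.07, 0.12, and 0.06. Krt14 and Krt5, the keratin pair of basal epithelial cells and named here after their values were seen, differed by -4.23 and -3.05 and then by 2.54 and 2.23, all with edgeR adjusted p of at most 3.74e-23.

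Other junctions were examined in the same fit. Of 12 adherens junction genes, all tested, 3 were lower in HFD than in LFD tumors by the 2-fold rule (2.68% of all tested genes). With EC359, 2 were higher than in HFD tumors (2.06%). The 3 were Cdh1 (-2.27), Cdh3 (-2.76), and Pvrl4 (-1.33 on the log2 scale), and of these Cdh1 (1.75) and Cdh3 (2.51) were higher with EC359. The catenins Ctnnb1, Ctnnd1, and Ctnna1, the most abundant of the list and partners of the classical cadherins, differed by 0.14, -0.01, and 0.21 between HFD and LFD and by -0.03, -0.02, and 0.04 with EC359 against HFD. Among hemidesmosome genes, Col17a1 (-2.50, then 2.45), a collagen of the hemidesmosome, and the laminin genes Lamb3 (-3.32, then 3.26) and Lama3 (-1.24, then 1.67) were lower in HFD than in LFD tumors and higher with EC359 by the 2-fold rule. The most abundant of that list, Plec, Cd151, and Dst, differed by -0.59, -0.19, and 0.13 and then by -0.13, 0.09, and 0.16. The genes of both lists that passed the rule were named after their values were seen.

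**Figure D4:**
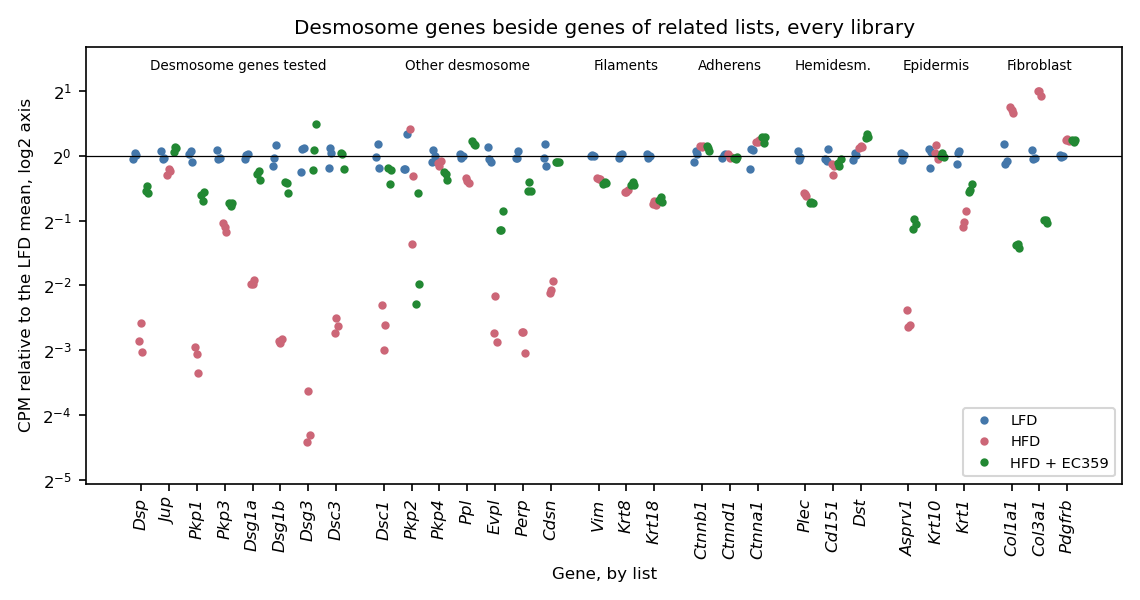
CPM of the tested desmosome genes and of genes from related lists in every library, relative to the LFD mean of the gene (log2 axis). The HFD points of Dsp, Pkp1, Dsg1a, Dsg1b, Dsg3, and Dsc3 lie far under the LFD level, as do those of Dsc1, Evpl, Perp, Cdsn, and Asprv1. Vim, Krt8, Krt18, the catenins, and Krt10 differ less (log2 differences of HFD from -0.73 to 0.21), with Krt18 (-0.73) and Krt8 (-0.55) still clearly lower.

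Desmosome genes are abundant in skin, and their levels are given beside those of skin markers. The summed level of the 11 listed genes of differentiated epidermis was 322 to 341 CPM in the LFD libraries, 154 to 162 CPM in the HFD libraries, and 269 to 279 CPM in the HFD + EC359 libraries. The summed level of the 10 desmosome genes was 633 to 643 CPM, 214 to 232 CPM, and 496 to 510 CPM. Of the 10 tested epidermis genes, 5 were lower in HFD than in LFD tumors by the 2-fold rule (2.68% of all tested genes). With EC359, 7 were higher than in HFD tumors (2.06%). At an adjusted p under 0.05 with any fold change, 8 were lower and 1 was higher in HFD than in LFD tumors. Of all 13366 tested genes, 6925 were called there in either direction, 3452 of them lower. By this rule 9 epidermis genes were higher with EC359 (12.7% of all tested genes). The 1 that was higher in HFD tumors was Flg2, an epidermal barrier protein named after its values were seen (0.56 on the log2 scale, edgeR adjusted p = 0.00226). Of the 3 most abundant per length, Asprv1, a protease of the granular layer, differed by -2.53 and then by 1.48 on the log2 scale, and the keratin Krt1 by -0.99 and 0.49. None of the 11 was at 0 throughout, and Krt2, an upper-layer keratin, had 0, 1, and 0 counts in the LFD libraries, 9, 8, and 2 in the HFD libraries, and 3, 4, and 2 with EC359. Krt10, the usual partner of Krt1, was 46.1 to 56.7, 50.7 to 59.2, and 52.0 to 54.2 CPM in the 3 groups and differed by 0.06 (edgeR adjusted p = 0.5203) and -0.05 (edgeR adjusted p = 0.6813). The part of skin in the differences of the desmosome genes was not tested.

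The hair follicle list had 9 genes in the files and none passed the filter. Krt25, Krt27, Krt28, Krt31, Krt34, Krt71, Krt73, and Krt86 had at most 3 counts in every library, and 4 of them were at 0 throughout. The list summed to at most 1.09 CPM in any library. The 8 genes of the simple epithelium list summed to 1121 to 1141 CPM in the LFD libraries, 706 to 715 CPM in the HFD libraries, and 766 to 796 CPM in the HFD + EC359 libraries. Most of this sum came from Krt8 (means of 599, 408, and 442.5 CPM) and Krt18 (486, 293, and 304 CPM). Krt7, Cldn3, and Cldn7 were scarce and did not pass the filter. Of the 5 tested genes of the list 3 (Epcam, Cdh1, and Cldn4) were lower in HFD than in LFD tumors and higher with EC359 by the 2-fold rule. The shares of all tested genes were 2.68% lower in HFD and 2.06% higher with EC359.

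Host cell markers differed between the groups as well. The 8 fibroblast genes summed to 6057 to 7115 CPM in the LFD libraries, 10400 to 11040 CPM in the HFD libraries, and 3257 to 3325 CPM in the HFD + EC359 libraries. Most of this sum came from Col1a1 and Col3a1, and the other 6 genes summed to 689 to 710.5 CPM, 867 to 879 CPM, and 917 to 937 CPM. The 5 endothelial genes summed to 196 to 204, 350 to 379, and 296 to 311 CPM, and the 5 leukocyte genes to 235 to 255, 309 to 322, and 375 to 397 CPM. The endothelial sum and the 2 collagens were highest in the HFD libraries, where the desmosome genes were lowest, and the leukocyte sum and that of the other 6 fibroblast genes were highest with EC359. Their part in the differences of the desmosome genes was not tested.

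The genes outside these lists whose pattern was most like that of the desmosome genes were ranked by Pearson correlation of log2 CPM over the 9 libraries, among 13233 genes. Closest to the mean of the 8 tested genes were Coch (r = 0.995), Myo18b (0.993), 1190003J15Rik (0.992), Cst6 (0.992), and Atp1b1 (0.989). Closest to Dsp alone were Coch (0.995), Atp1b1 (0.993), Tprg (0.992), 1190003J15Rik (0.992), and Sprr1a (0.991). Cst6, a cystatin, had means of 14.3, 2.74, and 13.3 CPM in LFD, HFD, and HFD + EC359 tumors, and Sprr1a, a precursor of the cornified envelope, had 34.1, 2.52, and 19.97 CPM. Atp1b1, a subunit of the sodium pump, had 38.1, 17.2, and 32.4 CPM. Coch had 3.52 and 1.80 CPM in the LFD and HFD + EC359 groups and was at 0 in the HFD libraries. The genes were chosen for this likeness, the points share groups and libraries, and no test was made.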

How the data were processed

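RNA-seq of the tumors gave 9 libraries with 1 count table each. The deposited values are estimated counts of read pairs per gene without normalization. Per the file headers, the authors counted with featureCounts 1.5.0-p1 on UCSC mm9 genes, on reverse-stranded pairs with a minimum mapping quality of 2, splitting pairs with several alignments or genes into fractions. The submitters' processing notes name HISAT2 2.1.0 and the study's methods name TopHat2, HTSeq, and DESeq. Between 1.19% and 3.55% of a library's genes held fractions, and expected counts were rounded to whole numbers.

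Analyses were run in R 4.3.3. Genes were filtered with filterByExpr of edgeR 4.0.16 by group (13366 of 22609 remained) and scaled with TMM factors. One quasi-likelihood fit of the 3 groups over all 9 libraries gave 3 comparisons, with Benjamini-Hochberg adjustment over all tested genes. The main call was the rule of the study's methods, over 2-fold with an adjusted p under 0.01. A legend of the study gives a stricter fold of 4, used as an alternative. The desmosome genes and all lists were chosen with earlier results of these data known. Named were the 10 desmosome genes, tested genes of the other desmosome list, the 3 most abundant per length of each other list, scarce skin markers, and the 5 genes most like the mean and like Dsp. The result of 1 listed gene is not reported here. Levels per length are CPM per 1000 exon bases. GC content came from the mm9 sequence. Replicates of a group differed by somewhat more than sampling noise, and none was merged. The mean chi-square per gene between 2 of them was 3.1 and 2.54 for the pairs with LFD replicate 1, where sampling noise alone gives 1. It was 1.36 to 1.57 for the other pairs. LFD replicate 1 also had the lowest total (5085357 counts) and the largest GC difference (-0.54 on the log2 scale). Whether the replicates come from separate mice cannot be told from these values. Alternatives were DESeq2 1.42.0, RLE factors, library totals, other filters, the 6 libraries of a comparison, a replicate block, GC and length correction, each library left out, and, after seeing the data, Dsg1a and Dsg1b summed and the 4-fold rule. The fit was tested on simulated data.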

Additional observations from a re-analysis of the deposited data

How the results depend on the processing

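The counts of desmosome genes past either rule stayed within 1.5 times their value in all alternatives run. For HFD against LFD, 7 passed the 2-fold rule, and 6 did with the GC and length trend removed (Pkp3 was lost) or with at least 10 counts required in every library (Dsg3 was not tested). For HFD + EC359 against LFD at an adjusted p under 0.05, 6 passed, 4 with DESeq2 and 7 after the GC and length correction. Of 432 alternative values of the log2 fold changes of single desmosome genes, 412 kept direction and call, 12 lost and 2 gained the call, and 6 changed sign, the last all between HFD + EC359 and LFD. There, Dsg3 (0.15) was -0.11 with the GC and length trend removed, with or without the replicate block, and from -0.07 (without HFD + EC359 replicate 3) to 0.30 when single libraries were left out. Dsc3 (-0.05) was 0.02 with library totals alone, and with single libraries left out it ran from -0.13 to 0.02, with 0.00 without LFD replicate 2 and 0.02 without HFD + EC359 replicate 3. The cause was not tested. The other desmosome genes past the 2-fold rule for HFD + EC359 against LFD, 2 in number, were 1 with DESeq2, with at least 10 counts in every library (6 genes tested), or after removal of the GC and length trend, 0 with library totals alone and under the replicate block combined with the GC and length correction, and 0 to 2 when single libraries were left out. The adherens junction genes past it with EC359 against HFD, 2 in number, were 1 with at least 10 counts in every library (10 genes tested). The cause of the other changes was not tested.

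Same-numbered libraries of different groups did not deviate together (correlations from -0.0297 to 0.017). This gives no sign that the numbers pair the samples, but counting noise could hide a small shared effect, so pairing is not excluded. The replicate block alone changed no call of a desmosome gene: 7, 6, and 0 of 8 passed the 2-fold rule in the 3 comparisons, and 759, 457, and 676 genes in all against 763, 459, and 680. With at least 10 counts in every library those totals were 356, 211, and 418 genes, which leaves out genes near 0 in a group. Depth limits Dsg2, Dsc2, and HFD Dsg3, each at or near 3 counts in a library.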

Other observations

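The largest changes in the keratin list were in keratins that stressed epithelium induces, named after their values were seen. Krt6a was 213 to 225 CPM in the LFD libraries, 4.19 to 6.56 CPM in the HFD libraries, and 118 to 131 CPM in the HFD + EC359 libraries, and Krt17 was 134 to 139, 3.15 to 4.98, and 110.3 to 116.4 CPM. Their log2 fold changes were -5.30 and -5.07 for HFD against LFD and 4.47 and 4.80 for HFD + EC359 against HFD, with edgeR adjusted p of at most 2.569e-28. Krt16 differed by -5.14 and 3.79 and Krt6b by -5.02 and 4.51, and Krt6a and Krt6b are close copies that may share reads. Some genes of the cornified layer, also named after their values were seen, exceeded their LFD level with EC359. Hrnr was higher by 1.26 (SE 0.17) and Krtdap by 1.16 (SE 0.21) on the log2 scale in HFD + EC359 than in LFD tumors, with edgeR adjusted p of 8.383e-08 and 1.284e-05, while Asprv1 of the same list was lower by the 2-fold rule (-1.05, edgeR adjusted p = 4.376e-14).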
